A study of Oryctolagus cuniculus with 24 samples.

Results

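The genes described here are the 71 rows of the deposited gene count table whose names begin with MRPL or MRPS followed by a number, out of 23428 rows in all. They are named as genes for proteins of the mitochondrial ribosome, 43 under MRPL names and 28 under MRPS names, and all 71 are annotated in the table as protein coding. In the count by subunit, 45 were assigned to the large subunit and 26 to the small one, since MRPS18A and MRPS30 carry small-subunit names but sit in the large subunit. The others, MRPS36 among them, were assigned by name alone, and their place in the ribosome was not checked. A bacterial counterpart is known for 41 of them, and the other 30 were taken as specific to mitochondria. The filter on low counts kept 70. The exception was MRPS2, which had 0 counts in each of the 24 libraries; 3 counts over all libraries would be 0.00672 CPM (counts per 1000000).

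The mitochondrial ribosome reads the few messages encoded by mitochondrial DNA, all of which specify subunits of the respiratory chain and ATP synthase. Its RNA comes from mitochondrial DNA, but every one of its proteins is encoded in the nucleus, made on cytosolic ribosomes and imported, so its assembly draws on both genomes. Keratocytes are the resident cells of the corneal stroma; they are quiescent in the healthy cornea, and after wounding they can become proliferating fibroblasts or contractile myofibroblasts.

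Primary rabbit (Oryctolagus cuniculus) keratocytes at first passage were grown on glass coated with collagen for 6 days, and total RNA was sequenced in bulk. The serum-free group, the keratocyte condition, stayed in defined serum-free medium throughout. The TGF-β1 group, the myofibroblast condition, received the same medium with 5 ng/mL of this cytokine from day 1. The FBS group, the fibroblast condition, was kept serum-free until day 3 and then moved to DMEM with 10% fetal bovine serum. No group carries a genetic change, and each has 8 libraries. Serum, basal medium and length of exposure all set the FBS group apart from the others, and their effects cannot be told apart. The labels do not say whether the libraries of a group came from separate animals or cultures, so the p-values measure only the spread between these libraries, which may be technical.

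Total counts ran from 15410285 to 22528261 per library. Levels are given as CPM with library sizes scaled by the trimmed mean of M values (TMM), and gene differences come from edgeR's quasi-likelihood test with Benjamini-Hochberg adjustment over 13308 genes, called at an adjusted p under 0.05. The labels' cell states were only partly visible in their markers. KERA, a keratocyte proteoglycan, averaged 8807 CPM in serum-free medium, 293 under TGF-β1 and 237 under FBS, and ACTA2, the smooth muscle actin of myofibroblasts, averaged 2.92, 231 and 479 CPM. Mean ACTA2 was thus not highest in the group labelled as the myofibroblast condition. TAGLN and MYH11, from the same marker list, averaged 3.40, 411 and 258 CPM and 1.93, 5.54 and 7.81 CPM in the same order. Of the fibroblast markers, VIM averaged 2219, 3554 and 7217 CPM, THY1 41.6, 21.2 and 11.7 CPM and FN1 5289, 21157 and 909 CPM. THY1 and FN1 were thus lowest in the group labelled as the fibroblast condition. Of the epithelial markers KRT12 was at 0 in all 24 libraries and the 6 listed genes together reached at most 1.24 CPM. The 5 immune markers summed to 2.81 to 5.23 CPM in serum-free medium, 5.38 to 8.41 under TGF-β1 and 11.3 to 25.8 under FBS, most of it CD68, while the leukocyte marker PTPRC stayed at or below 0.353 CPM in each library. The 5 endothelial markers summed to 249 to 368, 52.9 to 114 and 19.6 to 26.1 CPM in the same order, most of it KDR. KDR, CDH5 and VWF had lower means in both treated groups. Mean PECAM1 was higher in both (0.0652, 0.283 and 0.679 CPM in the same order), and mean SLC4A11 was highest under FBS. The 5 glial and melanocyte markers summed to 14.9 to 30.5, 2.01 to 6.73 and 1.34 to 3.07 CPM. The part of such cells in the results below was not tested.

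Mitochondrial ribosomal protein transcripts were lowest in serum-free keratocytes, intermediate under TGF-β1 and highest under FBS. Summed over the 71 genes they came to 1066, 1155 and 1455 CPM in serum-free medium (lowest, median and highest of 8 libraries). The sum was 1545, 1724 and 1841 CPM under TGF-β1. With FBS it was 2712, 3034 and 4300 CPM. The 3 groups of libraries did not overlap. The mean sum under FBS was 2.61 times that in serum-free medium and 1.88 times that under TGF-β1, and the mean under TGF-β1 was 1.39 times that in serum-free medium. FBS replicates 5 and 6 stood above the rest at 4300 and 3823 CPM, against 2712 to 3094 CPM in the other 6 FBS libraries, and without them the FBS mean was 2.38 times the serum-free mean. In bulk RNA, a different share of cells of a type and a different amount of RNA per cell cannot be told apart.

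**Figure D1:**
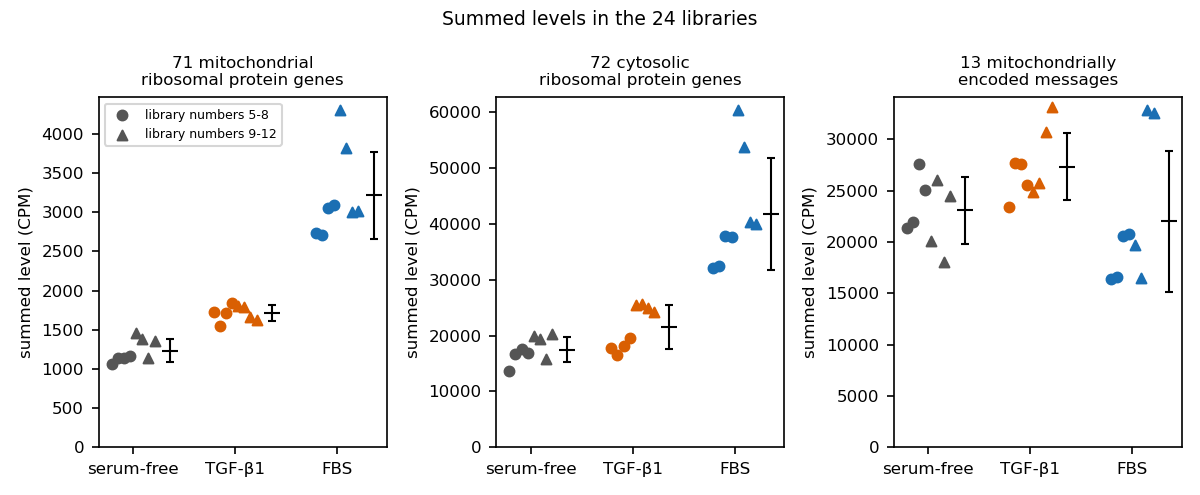
Summed CPM in each of the 24 libraries for the mitochondrial ribosomal protein genes, the cytosolic ribosomal protein genes and the 13 messages encoded by mitochondrial DNA; circles are library numbers 5-8, triangles 9-12, and the bar beside each group is the mean ± SD (n = 8). The 3 groups separate in the first panel, with 2712 CPM the lowest FBS sum and 1841 CPM the highest TGF-β1 sum, and overlap in the last.

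Individual genes spanned a wide range of levels. On the FPKM scale (fragment counts divided by gene length and library size, as deposited), the one that allows a comparison between genes, group means spanned 3.47 to 60.7 in serum-free medium, 4.60 to 101 under TGF-β1 and 9.59 to 199 under FBS. The medians over the 70 genes were 13.5, 19.1 and 38.8 FPKM. MRPL20, which encodes a large-subunit protein with a bacterial counterpart, stood at the top in each group (60.7 ± 15.8, 101 ± 14.5 and 199 ± 57.7 FPKM; SD, n = 8). MRPS31, which encodes a small-subunit protein specific to mitochondria, stood at the bottom (3.47 ± 0.85, 4.60 ± 0.60 and 9.59 ± 1.32 FPKM). MRPL20 rose by 0.72 on the log2 scale under TGF-β1 (SE 0.16, edgeR adjusted p = 0.000366) and by 1.71 under FBS (SE 0.16, adjusted p = 3.96e-10), and MRPS31 rose by 0.40 (SE 0.15, edgeR adjusted p = 0.0204) and 1.47 (SE 0.15, adjusted p = 8.5e-10). MRPL40, specific to mitochondria and also among the most abundant, had 35.4 ± 8.7, 65.6 ± 8.9 and 94.6 ± 23.4 FPKM in the same order of groups. The mean FPKM was highest under FBS for all 70 genes, and higher under TGF-β1 than in serum-free medium for 65.

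The FBS comparison sets the group labelled as the fibroblast condition against the keratocyte condition. Nearly the whole family rose. Of the 70 genes, 68 were higher under FBS than in serum-free medium and none was lower, at an adjusted p under 0.05 or at an unadjusted one. Over all genes tested, 80.0% were called, 39.5% as higher. The median log2 fold change over the 70 genes was 1.42, against -0.04 over all genes, with a range of 0.22 to 3.00. At least a 2-fold rise was called for 53, a call that 22.3% of all genes had, and 60 had all 8 FBS libraries above all 8 serum-free libraries, as did 27.2% of all genes.

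The largest rise was that of MRPS17 (scaffold Un0090, 928707 to 932545, minus strand; genome build not given in the sources used here). MRPS17 encodes a small-subunit protein that binds ribosomal RNA. Its lowest, median and highest levels were 1.53, 3.05 and 6.60 CPM in serum-free medium, 5.73, 6.60 and 7.95 under TGF-β1 and 23.5, 26.3 and 36.6 under FBS. Every FBS library lay far above both other groups, whose ranges overlapped. The log2 fold change under FBS was 3.00 (SE 0.20, edgeR adjusted p = 1.88e-13).

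MRPL14 (chromosome 12, 33516193 to 33532263, minus strand) encodes a large-subunit protein at the contact with the small subunit. It ranged over 7.87, 11.4 and 14.9 CPM (lowest, median, highest) in serum-free medium, 10.7, 13.7 and 20.1 under TGF-β1 and 48.2, 66.8 and 120 under FBS. The serum-free and TGF-β1 libraries overlapped and the FBS libraries stood apart from both. The log2 fold change under FBS was 2.68 (SE 0.19, edgeR adjusted p = 5.55e-13). With TGF-β1 it was 0.30 (SE 0.18, adjusted p = 0.15 by edgeR). A fit with the library number as a block called the TGF-β1 difference as well (adjusted p = 0.00882).

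MRPS12 (chromosome 5, 866845 to 869263, minus strand) encodes the protein at the decoding site of the small subunit. Its levels were 7.82, 10.9 and 14.8 CPM (lowest, median, highest) in serum-free medium, 14.6, 19.7 and 22.5 under TGF-β1 and 46.0, 54.8 and 87.1 under FBS. The 3 groups followed one another with a small overlap between serum-free medium and TGF-β1. MRPS12 rose by 2.39 on the log2 scale under FBS (SE 0.15, edgeR adjusted p = 4.52e-14) and by 0.76 under TGF-β1 (SE 0.14, adjusted p = 5.11e-05). MRPS16 (chromosome 18, 14155745 to 14157618, plus strand), another small-subunit gene with a bacterial counterpart, had a median of 23.0 CPM in serum-free medium (19.1 to 31.4), 37.6 under TGF-β1 (29.4 to 44.3) and 110 under FBS (83.6 to 173). It rose by 2.28 under FBS (SE 0.14, edgeR adjusted p = 7.4e-14) and by 0.63 under TGF-β1 (SE 0.14, adjusted p = 0.000317).

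At the other end, MRPL52 and MRPL36 were the members without a call under FBS. MRPL52 (chromosome 17, 43071308 to 43075650, plus strand), which encodes a large-subunit protein specific to mitochondria, had 15, 20.5 and 23.8 CPM (lowest, median, highest) in serum-free medium, 14.5, 16.1 and 18.5 under TGF-β1 and 19.2, 22.1 and 31.9 under FBS. The FBS range overlapped the serum-free one, and the TGF-β1 range lay below the FBS range. The log2 fold change under FBS was 0.22 (SE 0.11, edgeR adjusted p = 0.0712). It passed with the library number as a block (adjusted p = 0.0457), and when any one of serum-free replicates 5 and 8 or FBS replicates 1, 2 and 7 was left out (log2 fold change 0.25 to 0.28).

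MRPL36, which encodes a small zinc-binding protein of the large subunit, spread widely within each group. Its lowest, median and highest levels were 13.9, 33.4 and 57.6 CPM in serum-free medium, 28.7, 55.6 and 62.2 under TGF-β1 and 34.3, 44.0 and 91.2 under FBS. All 3 ranges overlapped. The log2 fold change was 0.47 under FBS (SE 0.25, edgeR adjusted p = 0.0841) and 0.44 under TGF-β1 (SE 0.25, adjusted p = 0.123). Both were called with the library number as a block (adjusted p = 0.0115 and 0.0107), and the FBS difference also without serum-free replicate 5, 6 or 8 (log2 fold change 0.57 to 0.60).

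**Figure D2:**
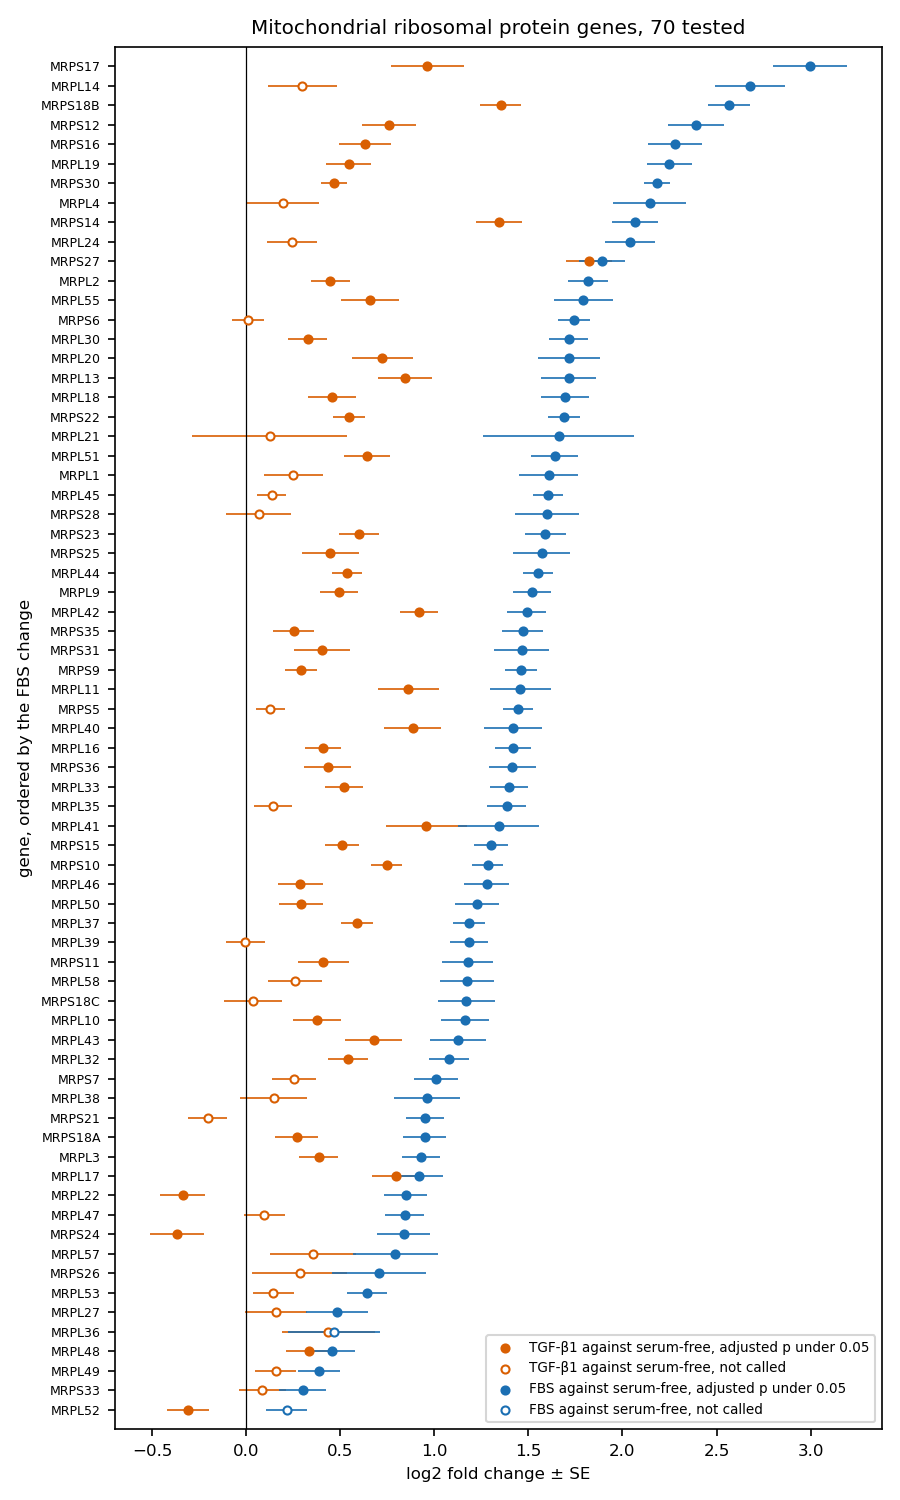
Log2 fold change ± SE (edgeR, 8 libraries per group) of the 70 tested genes against serum-free medium, orange for TGF-β1 and blue for FBS, filled where the adjusted p was under 0.05, and ordered by the FBS change. The blue points run from 0.22 for MRPL52 to 3.00 for MRPS17 and the orange points from -0.37 for MRPS24 to 1.82 for MRPS27.

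The TGF-β1 comparison does the same for the group labelled as the myofibroblast condition. It uses the same serum-free libraries, so its values are not independent of those above. The family rose less uniformly: 43 of 70 genes were higher under TGF-β1, 3 were lower and 24 did not pass. Over all genes tested, 64.3% were called, 31.2% as higher and 33.1% as lower. The median log2 fold change was 0.39 over the 70 genes and -0.03 over all genes. A rise of at least 2-fold was called for 3 (10.9% of all genes had that call), namely MRPS27, MRPS18B and MRPS14. In 15 genes the 8 TGF-β1 libraries all lay above the 8 serum-free libraries, as they did in 17.3% of all genes. The share of genes without overlap was thus near the background, while the share called higher was above it.

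MRPS27 (scaffold Un0022, 829697 to 931052, minus strand) had the largest change under TGF-β1. It encodes a small-subunit protein of the pentatricopeptide repeat family, which binds RNA. Its lowest, median and highest levels were 12.9, 14.2 and 16.9 CPM in serum-free medium, 36.7, 50.4 and 69.7 under TGF-β1 and 48.0, 52.7 and 65.1 under FBS. Both treated groups lay above every serum-free library and overlapped each other. MRPS27 rose by 1.82 on the log2 scale under TGF-β1 (SE 0.12, edgeR adjusted p = 8.1e-13) and by 1.89 under FBS (SE 0.12, adjusted p = 1.15e-13).

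MRPS14 (chromosome 13, 2247165 to 2274590, minus strand), a small-subunit gene with a bacterial counterpart, had 11.8, 15.7 and 20.5 CPM (lowest, median, highest) in serum-free medium, 35.8, 40.0 and 44.8 under TGF-β1 and 52.8, 61.7 and 95.3 under FBS. Its 3 groups did not overlap. The log2 fold change was 1.34 under TGF-β1 (SE 0.12, edgeR adjusted p = 3.82e-10) and 2.07 under FBS (SE 0.12, adjusted p = 2.8e-14). MRPL41, a large-subunit gene specific to mitochondria, had a median of 16.3 CPM in serum-free medium (10.2 to 25.3), 34.8 under TGF-β1 (24.3 to 41.4) and 36 under FBS (27.7 to 82.9). Its TGF-β1 and FBS ranges overlapped, and its log2 fold changes against serum-free medium were 0.96 (SE 0.21, edgeR adjusted p = 0.000364) and 1.34 (SE 0.21, adjusted p = 2.87e-06).

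The 3 genes that fell under TGF-β1 did so by small amounts. MRPL22 encodes a large-subunit protein that lines the tunnel through which the new peptide leaves. It had 9.61, 12.9 and 17.3 CPM (lowest, median, highest) in serum-free medium, 8.18, 10.1 and 13.2 under TGF-β1 and 21.7, 23.0 and 28.8 under FBS. The first pair of ranges overlapped and the FBS libraries lay above both. MRPL22 fell by 0.34 on the log2 scale under TGF-β1 (SE 0.12, edgeR adjusted p = 0.014) and rose by 0.85 under FBS (SE 0.12, adjusted p = 2.23e-07).

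MRPS24, which encodes a small-subunit protein, had 10.4, 16 and 22.1 CPM (lowest, median, highest) in serum-free medium, 10.1, 12.6 and 15 under TGF-β1 and 24.5, 27.6 and 39.2 under FBS. Here too only the FBS libraries stood apart. The log2 fold change was -0.37 under TGF-β1 (SE 0.14, edgeR adjusted p = 0.0267) and 0.84 under FBS (SE 0.14, adjusted p = 5.88e-06). The fall lost its call without serum-free replicate 5, 6 or 8 or without TGF-β1 replicate 1 (log2 fold change -0.29 to -0.32). MRPL52, described above, fell by 0.31 (SE 0.11, edgeR adjusted p = 0.0169). MRPL22 and MRPS24 were thus the members lower under TGF-β1 and higher under FBS, a pattern that 4.95% of all genes had (5.34% had the opposite one, and 0 members), whereas 43 members were higher in both treated groups, as were 20.7% of all genes.

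A further 23 genes had no call under TGF-β1 and were higher under FBS, 14 of them by at least 2-fold. Of all genes tested, 39.5% were higher under FBS. These include the 20.7% higher in both treated groups and the 4.95% lower under TGF-β1, and the remainder had this pattern. The share of all genes that had it with at least a 2-fold rise was not computed. MRPS6, which encodes a small-subunit protein with a bacterial counterpart, had nearly the same level in serum-free medium (8.54, 8.97 and 10.6 CPM as lowest, median and highest) and under TGF-β1 (7.39, 9.38 and 10.6 CPM). With FBS it had 25.8, 30.3 and 35.3 CPM, above every other library. Its log2 fold change was 0.01 under TGF-β1 (SE 0.09, edgeR adjusted p = 0.922) and 1.74 under FBS (SE 0.08, adjusted p = 3.5e-16).

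MRPL4 and MRPL24 encode large-subunit proteins at the peptide exit tunnel. MRPL4 had a median of 8.23 CPM in serum-free medium (3.57 to 9.82), 8.51 under TGF-β1 (5.99 to 11.2) and 31.1 under FBS (21.8 to 54.9). MRPL24 had a median of 22.9 CPM in serum-free medium (14.3 to 26.6), 26.9 under TGF-β1 (19.6 to 31.4) and 86.6 under FBS (71 to 129). In both genes only the FBS libraries stood apart. The log2 fold changes under FBS were 2.14 (SE 0.19, edgeR adjusted p = 1.24e-10) for MRPL4 and 2.04 (SE 0.13, adjusted p = 1.74e-13) for MRPL24. With TGF-β1 they were 0.19 (SE 0.19, edgeR adjusted p = 0.392) and 0.24 (SE 0.13, adjusted p = 0.108). The MRPL24 difference under TGF-β1 was called with the library number as a block (adjusted p = 0.0217) and without TGF-β1 replicate 2 (log2 fold change 0.30).

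MRPS7 and MRPL58 were also without a call under TGF-β1. MRPS7, a small-subunit gene with a bacterial counterpart, had a median of 48.3 CPM in serum-free medium (40.0 to 63.3), 59.1 under TGF-β1 (51.5 to 65.4) and 94.1 under FBS (71.2 to 133). Its log2 fold change under TGF-β1 was 0.25 (SE 0.12, edgeR adjusted p = 0.0617), called with the library number as a block (adjusted p = 0.0093) and without serum-free replicate 5, TGF-β1 replicate 2 or FBS replicate 2, 5 or 6 (log2 fold change 0.26 to 0.32). MRPL58, which encodes a large-subunit protein that can release peptides from stalled ribosomes, had a median of 20.0 CPM in serum-free medium (17 to 24.4), 24.6 under TGF-β1 (18.6 to 29.5) and 42.7 under FBS (29.4 to 71.1). Its log2 fold change was 0.26 under TGF-β1 (SE 0.14, edgeR adjusted p = 0.119; 0.0367 with the block) and 1.17 under FBS (SE 0.14, adjusted p = 3.51e-08).

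Set against each other, TGF-β1 libraries had lower levels than FBS libraries for 60 of 70 genes, higher levels for none and no call for 10. Over all genes tested, 73.3% were called, 36.4% as lower and 36.9% as higher. At an unadjusted p under 0.05 no member was higher under TGF-β1 either. The median log2 difference, TGF-β1 minus FBS, was -0.99 over the 70 genes and 0.01 over all genes, with a range of -2.38 to -0.03. At least a 2-fold difference was called for 33 (17.6% of all genes had it in this direction), and 53 had all TGF-β1 libraries below all FBS libraries, against 23.8% of all genes. For 51 genes the FBS libraries lay above all 16 others. The share of all genes with that pattern was not computed, but it cannot exceed the 23.8% just given. The largest differences were those of MRPL14 (-2.38, SE 0.18, edgeR adjusted p = 7.53e-12) and MRPS17 (-2.03, SE 0.19, adjusted p = 2.74e-10).

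The genes without a call between the treated groups included MRPL17, MRPL48 and MRPS27. MRPL17, a large-subunit gene with a bacterial counterpart, had 24.4, 40.7 and 49.4 CPM (lowest, median, highest) in serum-free medium, 54.3, 74.8 and 81.2 under TGF-β1 and 60.8, 77.0 and 101 under FBS. Both treated groups lay above the serum-free libraries, and they overlapped. Its log2 difference, TGF-β1 minus FBS, was -0.12 (SE 0.13, edgeR adjusted p = 0.379), and its rises over serum-free medium were 0.80 (SE 0.13, adjusted p = 5.44e-06) and 0.92 (SE 0.13, adjusted p = 2.84e-07). MRPL48, specific to mitochondria, had medians of 7.99, 9.72 and 10.3 CPM in the same order of groups, with overlapping ranges, and a log2 difference of -0.12 (SE 0.12, edgeR adjusted p = 0.368). For MRPL41 the difference was -0.38 (SE 0.21, edgeR adjusted p = 0.103), called with the library number as a block (adjusted p = 0.0311).

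**Figure D3:**
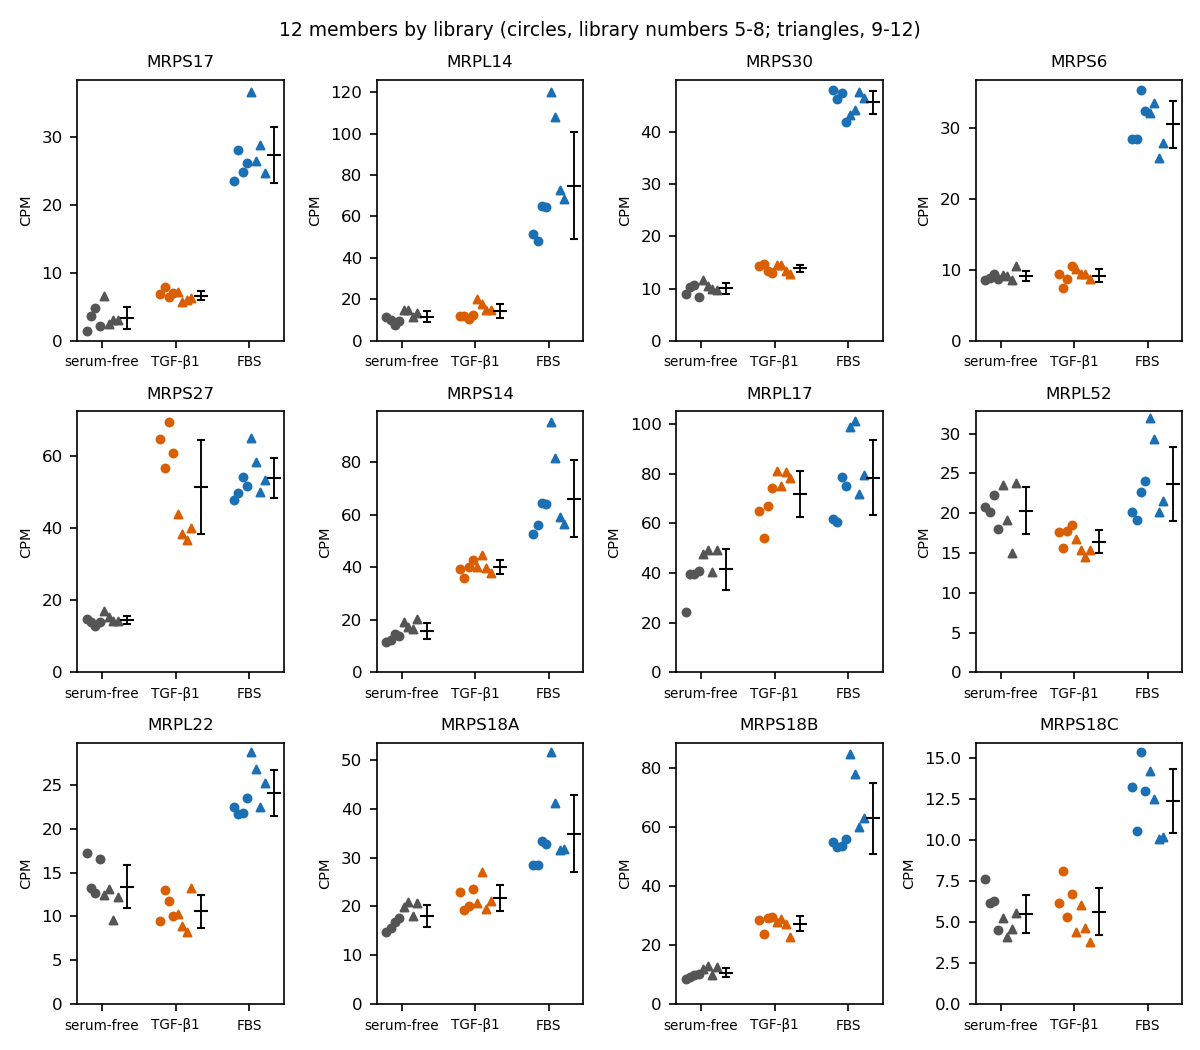
CPM of 12 genes in each of the 24 libraries, with the mean ± SD (n = 8) beside each group; circles are library numbers 5-8 and triangles 9-12. In the top row the FBS libraries stand apart (for MRPS6, 25.8 CPM or more against 10.6 or less); for MRPS27 the TGF-β1 circles lie above the TGF-β1 triangles, and for MRPL22 only the FBS libraries stand apart.

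Both subunits moved in the same direction. Among the 25 tested small-subunit genes, 16 were higher and 1 lower under TGF-β1 (median log2 fold change 0.41), 25 were higher under FBS (median 1.47) and 22 were lower under TGF-β1 than under FBS (median -1.13). Among the 45 large-subunit genes, 27 were higher and 2 lower under TGF-β1 (median 0.38), 43 were higher under FBS (median 1.38) and 38 were lower under TGF-β1 than under FBS (median -0.92). The ratio of summed small-subunit to summed large-subunit FPKM was 0.430 ± 0.016 (SD, n = 8) in serum-free medium, 0.441 ± 0.023 under TGF-β1 and 0.512 ± 0.022 under FBS, with every FBS library above every serum-free library. Genes with a bacterial counterpart had medians of 0.40 under TGF-β1 and 1.46 under FBS (40 tested), and those specific to mitochondria had 0.38 and 1.31 (30 tested). These medians are descriptions of chosen lists, and the differences between them were not tested.

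The MRPS18 paralogs show how far members of one small family can part. All are related to a single bacterial small-subunit protein; MRPS18B and MRPS18C sit in the small subunit and MRPS18A in the large one. MRPS18B (chromosome 12, 22663179 to 22669083, plus strand) had 8.56, 10.0 and 12.9 CPM (lowest, median, highest) in serum-free medium, 22.7, 28.1 and 29.3 under TGF-β1 and 53.3, 57.9 and 84.6 under FBS. MRPS18A (chromosome 12, 33096040 to 33113859, minus strand) had 14.8, 17.8 and 21, then 19.2, 20.9 and 27, then 28.5, 32.2 and 51.6 CPM. MRPS18C (chromosome 15, 62965969 to 62970686, plus strand) had 4.09, 5.38 and 7.64, then 3.77, 5.65 and 8.12, then 10.0, 12.8 and 15.4 CPM. The groups did not overlap at all for MRPS18B, while for the other paralogs only the FBS libraries were apart.

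MRPS18B rose by 1.35 on the log2 scale under TGF-β1 (SE 0.11, edgeR adjusted p = 3.77e-11) and by 2.57 under FBS (SE 0.11, adjusted p = 3.55e-17). MRPS18C had 0.03 under TGF-β1 (SE 0.15, edgeR adjusted p = 0.86) and rose by 1.17 under FBS (SE 0.15, adjusted p = 9.62e-08). MRPS18A rose by 0.27 under TGF-β1 (SE 0.11, edgeR adjusted p = 0.0432) and by 0.95 under FBS (SE 0.11, adjusted p = 2.62e-08). The TGF-β1 call for MRPS18A was lost without any one of serum-free replicates 1, 2, 3, 4 and 7 or TGF-β1 replicates 1, 4 and 6 (log2 fold change 0.22 to 0.27). MRPS30, the other large-subunit protein under a small-subunit name, was among the most even genes: 8.48, 10.1 and 11.6 CPM in serum-free medium, 12.9, 13.9 and 14.7 under TGF-β1 and 42.0, 46.4 and 48.0 under FBS. Its groups did not overlap, and it rose by 0.46 under TGF-β1 (SE 0.07, edgeR adjusted p = 1.92e-06) and by 2.18 under FBS (SE 0.07, adjusted p = 7.69e-20).

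The library names carry the numbers 5 to 12, and in each group replicates 1 to 4 are numbers 5-8 and replicates 5 to 8 are numbers 9-12; the labels do not say what the numbers stand for. Within numbers 5-8 the median log2 fold change of the 70 genes was 0.46 under TGF-β1, 1.35 under FBS and -0.83 for TGF-β1 minus FBS. Within numbers 9-12 it was 0.35, 1.46 and -1.14. A term for the difference between the number sets was called for 2 members under TGF-β1 (10.3% of all genes), 6 under FBS (22.4%) and 12 between the treated groups (23.9%). In all 12 of the last, the TGF-β1 minus FBS difference was more negative in numbers 9-12. For MRPS27 and MRPL27 it was above 0 in numbers 5-8 (0.30 and 0.08).

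MRPS27 changed order between the sets. With TGF-β1 it had 56.9 to 69.7 CPM in replicates 1 to 4 and 36.7 to 43.9 CPM in replicates 5 to 8, without overlap, whereas under FBS it had 48.0 to 54.4 and 50.2 to 65.1 CPM. The log2 difference, TGF-β1 minus FBS, was 0.30 in the first set and -0.52 in the second, both called within their set, and the set term had an edgeR adjusted p of 2.55e-05. The pooled value of -0.07 (SE 0.12, edgeR adjusted p = 0.608) therefore averages opposite differences.

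MRPL21, a large-subunit gene with a bacterial counterpart and one of the least abundant members, differed between the sets in its response to FBS. It had 0.488 to 3.11 CPM in serum-free replicates 1 to 4 and 1.52 to 3.40 CPM in replicates 5 to 8. With FBS it had 1.67 to 3.03 CPM in replicates 1 to 4 and 8.16 to 15 CPM in replicates 5 to 8. Its FBS log2 fold change was 0.26 in the first set and 2.24 in the second (set term, edgeR adjusted p = 0.00183), around a pooled value of 1.66 (SE 0.40, adjusted p = 0.00052).

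The FBS replicates 5 and 6 that headed the summed levels also differed by gene length. The members are short genes, with a median length of 987 bases (418 to 2633) against 2597.5 over all genes tested. Over all genes, the Spearman correlation between length and a library's deviation from its group mean was -0.53 for FBS replicate 5 and -0.48 for FBS replicate 6, against 0.43 for both FBS replicates 1 and 2. The median deviation of the members from their group mean was 0.40 and 0.21 on the log2 scale in replicates 5 and 6, and -0.20 and -0.19 in replicates 1 and 2. The trait was not confined to FBS. Serum-free replicate 5 had a length correlation of -0.39 and a median member deviation of 0.22, and serum-free replicate 1 had 0.25 and -0.16. Over all 24 libraries, the length correlation and the median member deviation had a Spearman correlation of -0.79. With a correction for length in each library, 1.10 was the median FBS change of the members and -0.78 the median TGF-β1 minus FBS difference. Without FBS replicates 5 and 6, a choice made with earlier results of these data known, 66 genes were higher under FBS, with a median of 1.30. Among the members themselves, length and log2 fold change had Spearman correlations of -0.02 under TGF-β1 and -0.11 under FBS across 70 genes, which share the same libraries.

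On the map of the table, 51 members lie on 17 chromosomes and 20 on unplaced scaffolds. One pair lies side by side: MRPS11 (scaffold Un0236, 186949 to 192892, minus strand) and MRPL46 (193137 to 199186, plus strand) start 244 bases apart and are transcribed away from each other. MRPS11 rose by 0.41 under TGF-β1 (SE 0.14, edgeR adjusted p = 0.0107) and by 1.18 under FBS (SE 0.14, adjusted p = 1.24e-08), and MRPL46 rose by 0.29 (SE 0.12, edgeR adjusted p = 0.0389) and 1.28 (SE 0.12, adjusted p = 2.36e-10). Some rows listed only by number are described by RefSeq as similar to mitochondrial ribosomal proteins. Of 13 such rows found, 7 passed the filter. Some are near copies of members. Others are similar to MRPL15 or MRPL23, which are not among the members. The tested row similar to MRPL15 averaged 21.2 CPM in serum-free medium, 25.4 under TGF-β1 and 41.7 under FBS. The row similar to MRPL23 averaged 13.6, 16.3 and 36.8 CPM in the same order. Whether these are ribosomal protein genes left out by the choice by name was not tested. Reads may be split between MRPL20, MRPL32, MRPL48 or MRPS17 and their near copies, so the levels of these members are uncertain to that extent. The copy of MRPS17 averaged 0.231 CPM in serum-free medium, 0.236 under TGF-β1 and 0.929 under FBS, far under MRPS17 itself.

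Other genes of mitochondrial translation were read from lists chosen, like the rest, with earlier results known. For these and the lists that follow, 31.2% of all genes tested were higher and 33.1% lower under TGF-β1. Under FBS, 39.5% of all genes were higher and 40.5% lower. Of 5 mitoribosome genes under other names, 1 was higher under TGF-β1 and 4 under FBS (medians 0.17 and 1.02). CHCHD1, of the small subunit, rose by 0.65 under TGF-β1 (SE 0.16, edgeR adjusted p = 0.000923) and by 1.63 under FBS (SE 0.16, adjusted p = 6.3e-10). Of 21 genes for assembly and RNA modification, 6 were higher and 3 lower under TGF-β1 (median 0.15), and 16 were higher and 2 lower under FBS (median 0.71). RBFA, a small-subunit assembly factor, rose by 1.52 under FBS (SE 0.20, edgeR adjusted p = 1.84e-07), whereas NGRN, which is needed for the large ribosomal RNA, fell by 0.93 (SE 0.11, adjusted p = 9.46e-09). MTERF4, of the same list, fell by 0.67 under TGF-β1 (SE 0.10, edgeR adjusted p = 8.13e-07) and rose by 0.34 under FBS (SE 0.09, adjusted p = 0.00193).

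Of 16 mitochondrial translation factors and related proteins, 4 were higher and 1 lower under TGF-β1 (median 0.13), and 14 were higher under FBS (median 0.73). TSFM, the exchange factor for elongation, rose by 1.55 under FBS (SE 0.13, edgeR adjusted p = 1.26e-11) and had -0.18 under TGF-β1 (SE 0.13, adjusted p = 0.212). Of 18 rows for mitochondrial aminoacyl-tRNA synthetases, 4 were higher and 6 lower under TGF-β1 (median -0.06), and 13 were higher and 1 lower under FBS (median 0.66). YARS2 rose by 1.08 under TGF-β1 (SE 0.10, edgeR adjusted p = 3.04e-10) and by 1.96 under FBS (SE 0.10, adjusted p = 6.5e-16). NARS2 had 0.02 under TGF-β1 (SE 0.11, edgeR adjusted p = 0.865) and rose by 1.53 under FBS (SE 0.11, adjusted p = 1.18e-12). Under TGF-β1 the share called higher was 20% for the genes under other names and 28.6% for assembly. It was 25% for the translation factors and 22.2% for the synthetases. Each lay below the share of all genes, and the synthetases' share called lower, 33.3%, was near that of all genes.

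The cytosolic ribosome moved by similar amounts. Of 71 cytosolic ribosomal protein genes tested, 32 were higher and 2 lower under TGF-β1 (median 0.37), and 67 were higher and 1 lower under FBS (median 1.38). The summed FPKM of the mitochondrial set was 0.0520 ± 0.0034 (SD, n = 8) of the cytosolic sum in serum-free medium, 0.0594 ± 0.0103 under TGF-β1 and 0.0590 ± 0.0042 under FBS. These ranges overlapped, but the order of the treated groups reversed between the number sets. In numbers 5-8 the ratio was 0.0681 to 0.0704 under TGF-β1 and 0.0606 to 0.0647 under FBS. In numbers 9-12 it was 0.0488 to 0.0509 under TGF-β1 and 0.0537 to 0.0571 under FBS. Of 73 nuclear genes listed for the respiratory chain, 42 were higher and 0 lower under TGF-β1 (median 0.41), and 61 were higher and 3 lower under FBS (median 1.02). Of 12 markers of mitochondrial content, 9 were higher and 1 lower under TGF-β1 and 12 were higher under FBS (medians 0.45 and 1.59). HSPD1, a matrix chaperone, rose by 0.78 (SE 0.11, edgeR adjusted p = 5.06e-07) and 2.86 (SE 0.11, adjusted p = 4.64e-18).

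The messages that the mitochondrial ribosome reads had overlapping summed levels in the 3 groups. The 13 together had 18072, 23203 and 27571 CPM in serum-free medium (lowest, median, highest), 23378, 26641 and 33180 under TGF-β1 and 16398, 20141 and 32863 under FBS. FBS replicates 7 and 8 had 32863 and 32563 CPM and lay far above the other 6 FBS libraries, replicates 5 and 6 among them (19682 and 16531 CPM). With TGF-β1, 1 of 13 was higher and 0 lower (median 0.26), and under FBS 6 were higher and 2 lower (median 0.40). Without FBS replicates 7 and 8, an alternative chosen after seeing the data, 1 was higher and 4 were lower under FBS (median 0.05), and 5 were higher and 0 lower under TGF-β1 (median 0.27); 69 of the 70 ribosomal protein genes were then higher under FBS. The FBS median of the 13 messages was -0.02 within library numbers 5-8, 0.64 within 9-12 and -0.02 with the length correction. COX1, the largest cytochrome oxidase subunit, fell by 0.53 under FBS (SE 0.13, edgeR adjusted p = 0.000756), whereas CYTB, of the cytochrome bc1 complex, rose by 0.79 (SE 0.16, adjusted p = 7.75e-05). Whether the protein genes and these messages differ in their change was not tested.

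Regulators of mitochondrial genes differed in direction. MYC, a growth-related transcription factor, had a median of 18 CPM in serum-free medium (11.3 to 24.7), 45.2 under TGF-β1 (35.8 to 49.3) and 157 under FBS (138 to 190). Its groups did not overlap, and it rose by 1.30 under TGF-β1 (SE 0.13, edgeR adjusted p = 1.83e-09) and by 3.19 under FBS (SE 0.14, adjusted p = 2.17e-17). PPARGC1A, a coactivator of mitochondrial biogenesis, had a median of 20.0 CPM in serum-free medium (15.6 to 22.4), 2.43 under TGF-β1 (0.910 to 5.38) and 1.40 under FBS (0.513 to 2.20). Both treated groups lay below every serum-free library, and PPARGC1A fell by 2.85 (SE 0.27, edgeR adjusted p = 5.51e-10) and 3.93 (SE 0.28, adjusted p = 9.66e-13). Over the 8 regulators listed, 2 were higher and 2 lower under TGF-β1, and 5 were higher and 1 lower under FBS. TFAM, which packages mitochondrial DNA, had -0.10 under TGF-β1 (SE 0.15, edgeR adjusted p = 0.586) and rose by 1.45 under FBS (SE 0.15, adjusted p = 1.63e-09), and TFB2M, of the mitochondrial transcription machinery, rose by 1.00 (SE 0.12, adjusted p = 3.37e-08) and 1.57 (SE 0.12, adjusted p = 2.18e-12).

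**Figure D4:**
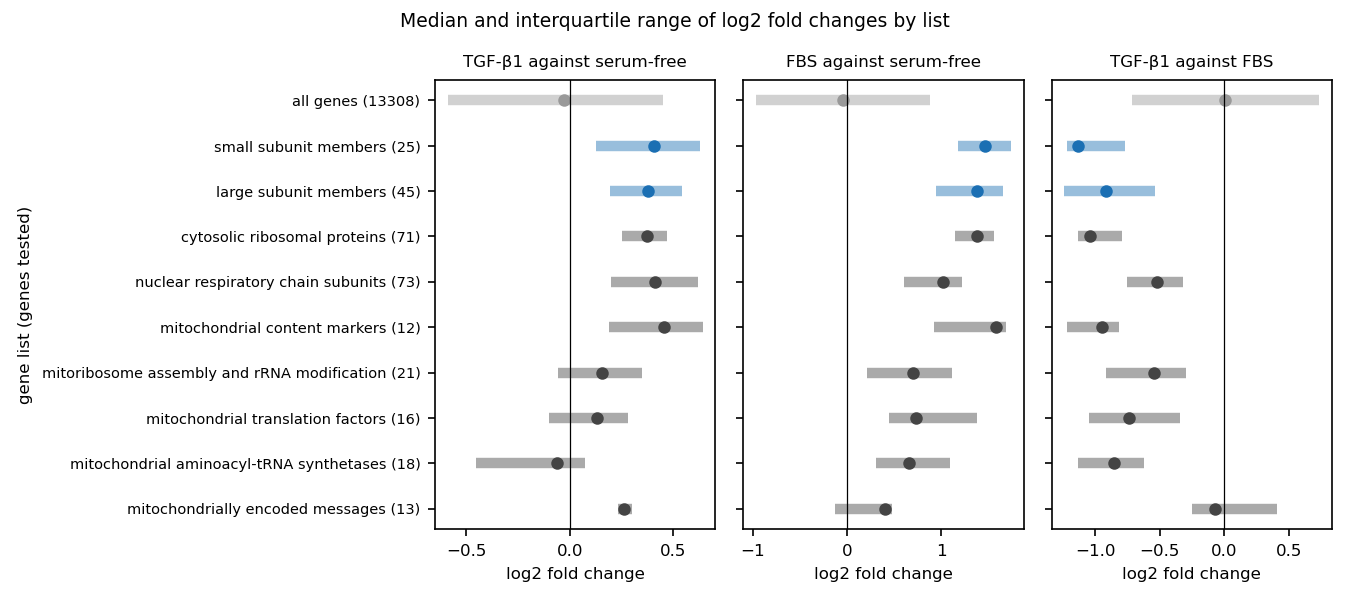
Median (point) and interquartile range (bar) of log2 fold changes by gene list in the 3 comparisons, with the number of genes tested in parentheses; the members are in blue, all 13308 genes in light grey. With FBS the small- and large-subunit medians of 1.47 and 1.38 lie beside the cytosolic ribosomal median of 1.38, and the mitochondrially encoded messages lie at 0.40.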

How the data were processed

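RNA from 24 libraries, 8 per condition, was sequenced at a service company per the labels' protocols. The count table that the authors deposited holds unnormalized whole-number counts per gene, per the file headers and values. Their deposited FPKM table divides these by gene length and a library size that lay within 0.990 to 1.017 of the TMM size computed here. Read processing: not given in the sources used here. Gene names are those of the table; 764 rows listed by number took a RefSeq symbol (mOryCun1.1, names only), and 7 listed genes were not matched.

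Counts were filtered with filterByExpr by condition and fitted over all 24 libraries with edgeR 4.0.16 in R 4.3.3 (TMM, quasi-likelihood F-test, no covariate), with p-values adjusted over 13308 genes. The script recovered known changes in simulated counts. For each comparison the text names the 5 members with the largest called rise and the 5 with the largest called fall, and the 2 most abundant without a call. It also names the 5 highest and 3 lowest by mean FPKM, those called in opposite directions, the MRPS18 paralogs, MRPS27, MRPS30 and MRPL58, and of other lists the largest called changes. MRPL12, also in that rule, is not analysed here, and MRPS11 and MRPL46 are named for their position. The members and all lists were chosen with earlier results of these data known.

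Same-numbered libraries deviated together in every pair (correlations of residuals from 0.103 to 0.429, over the numbers and comparisons). The numbers were taken to pair libraries only in the fit with a block, and the main fit left them out. The correlations cannot show pairing by number, since a difference between the number sets shared by the groups would also give them. Libraries with different numbers from the same set were not compared. A fit with the number as a block is given where it changes a call. Alternatives were DESeq2 1.42.0, limma 3.58.1 on log2(FPKM + 1) and log2(FPKM + 0.1), other scalings, other filters, a length correction, each number set alone, neighbouring libraries summed and each library left out. No pair of libraries differed by as little as sampling noise. Neighbouring FBS libraries were nevertheless the most alike in their group. Their chi-square, scaled to gene number, was 2.80 (replicates 1 and 2), 3.36 (3 and 4), 6.62 (5 and 6) and 3.01 (7 and 8). Other FBS pairs had 7.89 or more. In the TGF-β1 group the lowest values were also those of neighbours, 3.22 (5 and 6), 3.68 (7 and 8) and 4.88 (3 and 4), but replicates 1 and 2 had 17.6. In serum-free medium replicates 1 and 2 had 16.5, and replicates 2 and 3 had 7.06. Whether neighbouring libraries are independent, as the p-values assume, was not tested.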

Additional observations from a re-analysis of the deposited data

Results flagged for a closer look

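A search for single libraries apart from the rest of their group covered 81 groups of 8 libraries (27 genes in 3 conditions), of which chance would place about 1 in 20 apart. It found 3. MRPS17 was at 36.6 CPM in FBS replicate 5, against 23.5 to 28.7 CPM in the other FBS libraries. MRPS6 was at 10.6 CPM in serum-free replicate 8, against 8.54 to 9.38 CPM in the others. MRPL17 was at 24.4 CPM in serum-free replicate 1, against 39.8 to 49.4 CPM in the others.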

How the results depend on the processing

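Each result was recomputed under 40 other settings. Leaving out 1 library at a time gave 39 to 46 members higher and 2 to 4 lower with TGF-β1 (median log2 fold change 0.36 to 0.42), 66 to 70 higher and 0 lower with FBS (median 1.30 to 1.47), and 59 to 63 lower and 0 higher for TGF-β1 against FBS (median -1.02 to -0.92). The count of members lower with TGF-β1 was 1 in library numbers 5-8, 1 in numbers 9-12 and 0 with neighbouring libraries summed. The FBS median was 1.67 with total library size as the only scaling and 1.10 with the gene length correction, and the median of TGF-β1 minus FBS was -1.39 and -0.78. Total library size also moved the median of all genes to -0.17 with TGF-β1, 0.21 with FBS and -0.39 between them, and with it the share of calls that were higher from 48.5% to 37.5%, from 49.4% to 58.3% and from 50.4% to 31.5%; upper-quartile scaling moved the median of all genes to -0.12 and -0.15 against serum-free medium. One member, MRPS27, was higher with TGF-β1 than with FBS in numbers 5-8 (count 1, log2 difference 0.30). The direction also reversed for one of the rows named CARS2 with FBS (-0.015 with the length correction, 0.32 otherwise) and for HARS2 between the treated groups (-0.10 with total library size, 0.29 otherwise). The cause was not tested.

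With the library number as a replicate block, 51 members were higher and 3 lower with TGF-β1 (median 0.39), 70 were higher and 0 lower with FBS (median 1.42), and 65 were lower and 0 higher for TGF-β1 against FBS (median -0.99). The calls that the block changed among the members named with their values are given beside them, and it changed no other such call. Depth does not limit most members, but MRPS31, MRPL21 and MRPS17 lie at a few CPM in serum-free medium, where counting error is largest.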
